A study of Mus musculus with 10 samples.

Results

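The genes described here carry phosphate across the kidney tubule and receive the hormones that set its loss into the urine. They are 10 genes, taken by symbol from the 43629 genes of the count table: the phosphate transporters Slc34a1, Slc34a3, Slc20a1 and Slc20a2, the scaffolds Slc9a3r1 and Pdzk1, the co-receptor Kl (klotho), and the receptors Fgfr1, Pth1r and Vdr. The rule uses no measured value, though the genes were chosen with earlier results of these data known. All 10 are listed in the table, and 9 passed the filter on low counts, which kept genes that reached 6 reads in 7 or more of the 10 libraries. Pdzk1 did not pass and is given by its levels alone.

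The kidneys came from 4-month-old male UM-HET3 mice, a genetically mixed stock bred from several inbred strains, and each library is labelled as a separate biological replicate. The mice of a group are not genetically identical. The control group held 6 kidneys of mice on the plain diet (Purina 5LG6), and the rilmenidine group held 4 kidneys of mice given that diet with 10 ppm of rilmenidine, an antihypertensive agonist of the I1-imidazoline receptor, during the last month. The comparison asks how the kidney's gene expression responded to a drug that the study had linked to caloric restriction.

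Phosphate is filtered at the glomerulus and is taken back mainly in the proximal tubule, by sodium-driven cotransporters in the brush border. Parathyroid hormone, acting through Pth1r, and FGF23, acting through Fgfr1 with klotho as its co-receptor, remove these cotransporters from the membrane and so raise phosphate loss. FGF23 also lowers active vitamin D by inducing Cyp24a1 and restraining Cyp27b1, and active vitamin D acts through Vdr. Klotho is known for its high expression in the distal tubule of the kidney, and mice that lack it retain phosphate and age early.

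None of the 9 tested genes passed the test for a difference between rilmenidine and control kidneys. With edgeR's quasi-likelihood test and Benjamini-Hochberg adjustment at 0.05, 0 of 9 were called, and 0 of all 10055 genes tested (0.0%). At an unadjusted p under 0.05 the counts were 0 of 9 and 1061 of 10055 (10.6%), while the likelihood ratio test of edgeR and DESeq2, which called 0.438% and 0.778% of all genes at the adjusted threshold, called 0 of the 9. In 3 of the 9 the fitted change was above 0 and in 6 it was below, beside 50.3% above 0 among all genes tested. The median log2 fold change was -0.04 over the 9 genes and 0.0021 over all genes. The values of the groups overlapped in every one of the 10 genes, while 168 of the 10055 genes tested (1.67%) did not overlap. These are bulk samples of whole kidney, in which fewer cells of a type and less RNA per cell cannot be told apart.

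**Figure D1:**
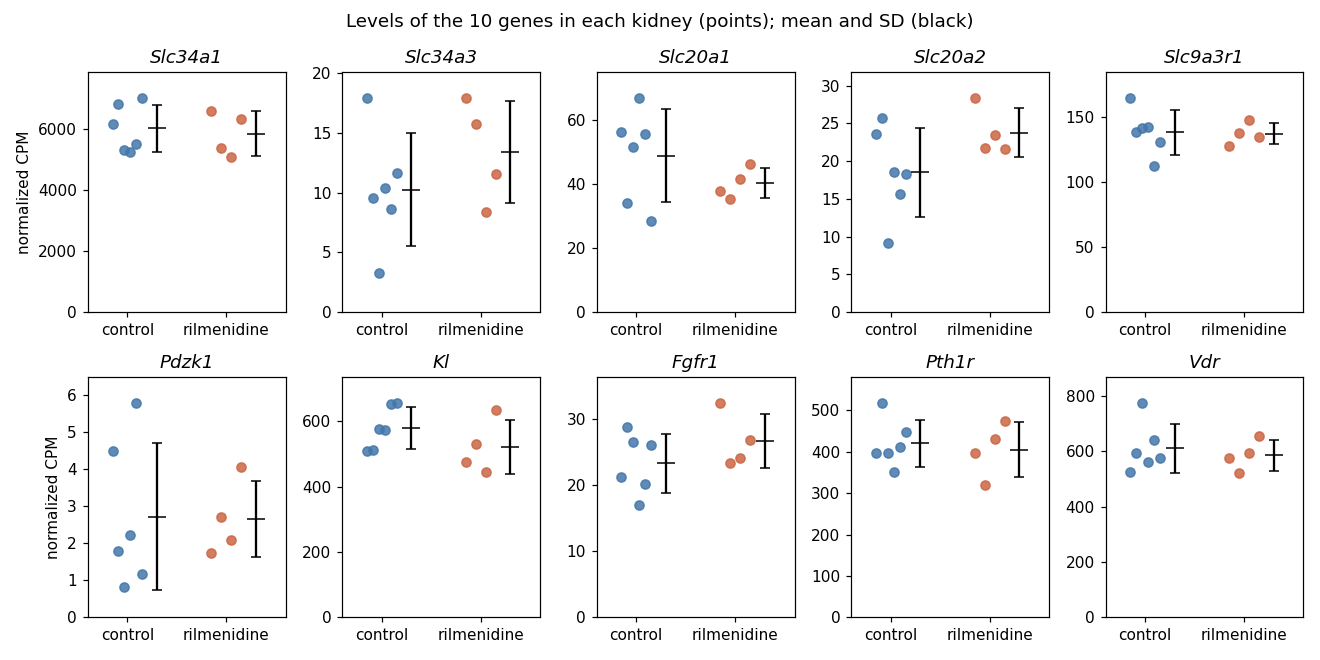
Normalized CPM (vertical axes, counts scaled to a common normalized library size) of the 10 genes in 6 control and 4 rilmenidine kidneys; each point is a kidney, and the black marks give the mean and SD of the group. The points of the groups overlap in every panel, and the panels differ in scale from a few CPM for Pdzk1 to a mean of 6002 in control kidneys for Slc34a1.

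The libraries held 863605 to 2559118 counts in control kidneys and 1813465 to 3232063 in rilmenidine kidneys. The description of tissue collection in the labels speaks of liver, although the tissue label is kidney. Liver markers were low, with Alb at 0 to 20 counts and Fga, the highest, at 25 to 133, and the 18 proximal tubule markers summed to 13508 to 16364 normalized CPM in control kidneys and 14858 to 16591 in rilmenidine kidneys. Adrenal markers reached at most 13 counts. The common biological coefficient of variation of the fit was 0.221. Reads on olfactory and vomeronasal receptor genes stood under 10 CPM in 3 libraries and ranged up to 436 CPM in the others, and the values of the 7 libraries above 10 CPM are given with the other settings after the genes.

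Slc34a1 (ENSMUSG00000021490; GRCm38 chromosome 13, 55398187 to 55415592) encodes the main sodium-phosphate cotransporter of the proximal brush border. It ranked 12 by mean CPM among the 10055 genes tested. Control kidneys ranged from 5241 to 7010 normalized CPM with a median of 5821, and rilmenidine kidneys 1 to 4 had 6583, 5351, 5082 and 6316. Each group held kidneys at the low and at the high end, so that the ranges lay almost on top of each other. The means were 6002 ± 779 (SD, n = 6) and 5833 ± 728 (SD, n = 4), a difference of -0.04 ± 0.15 on the log2 scale (SE; adjusted p = 0.960, edgeR). Its 95% interval spans folds of 0.777 to 1.22. The coefficient of variation in control kidneys was 13.0%, while counting error alone gives 1.08%. Of the last 500 exonic bases, from which a 3′-end library draws its reads, 140 lie under exons of Pfn3 on the opposite strand.

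Slc34a3 (ENSMUSG00000006469; chromosome 2, 25228898 to 25234364) encodes the other renal transporter of the same family and ranked 7493. It had 3.32 to 18.0 normalized CPM in control kidneys, with a median of 9.99, and 18.0, 15.7, 8.40 and 11.6 in rilmenidine kidneys 1 to 4. The highest value was the same in both groups to the first decimal, and only 1 control kidney lay below the lowest rilmenidine kidney. It differed by 0.37 ± 0.33 on the log2 scale (SE; adjusted p = 0.733, edgeR), with folds of 0.802 to 2.10 inside the interval, and by 0.21 without control kidney 3 or without rilmenidine kidney 1. These levels rest on 4 to 37 reads a library: counting error alone gives a coefficient of variation of 26.9%, beside the 46.2% seen in control kidneys.

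The start regions of the 2 genes are shown because these family members stood furthest apart in level among the transporters. Each window runs from 250 bases before to 50 bases after the start in RefSeq (GRCm38.p6), read 5′ to 3′ on the strand of the gene, at chr13:55399398-55399697 (plus strand) for Slc34a1 and at chr2:25234185-25234484 (minus strand) for Slc34a3. The RefSeq starts of both lie inside the GENCODE bounds given above. Capitals mark, on either strand, the letters GTTAAT (a half-site of hepatocyte nuclear factor 1), AGGTCA (a half-site of nuclear receptors), TATAAA (the TATA box) and the GC box, written GGGCGG.
Slc34a1: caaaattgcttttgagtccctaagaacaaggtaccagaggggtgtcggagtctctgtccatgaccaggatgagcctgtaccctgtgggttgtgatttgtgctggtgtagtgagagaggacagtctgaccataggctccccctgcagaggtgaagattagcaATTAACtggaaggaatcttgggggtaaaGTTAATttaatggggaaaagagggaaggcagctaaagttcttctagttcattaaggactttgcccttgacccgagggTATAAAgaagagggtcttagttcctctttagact
Slc34a3: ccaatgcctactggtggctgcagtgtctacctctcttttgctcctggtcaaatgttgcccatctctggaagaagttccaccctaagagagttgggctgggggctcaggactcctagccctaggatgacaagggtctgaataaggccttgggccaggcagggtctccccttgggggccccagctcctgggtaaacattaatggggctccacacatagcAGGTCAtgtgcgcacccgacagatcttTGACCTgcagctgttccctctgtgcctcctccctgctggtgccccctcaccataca
With the first transcribed base counted as 1, the Slc34a1 window held GTTAAT at -61, the same letters on the other strand at -89, and TATAAA at 17. The match at 17 lies after the start and is not read as a TATA box. The Slc34a1 window was the only one of 12 windows of 8 of the 10 genes with GTTAAT, which 7.1% of all 32851 promoter windows hold. The Slc34a3 window held AGGTCA at -33 and, on the other strand, at -6, and the share of all windows with AGGTCA is 16.3%. Both windows were poor in CpG, with 2 each against a median of 7 over all promoters. A match of letters is no measure of binding.

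Slc20a1 and Slc20a2 encode the sodium-phosphate transporters of the other family, which are present in most tissues. Slc20a1 (ENSMUSG00000027397; chromosome 2, 129198764 to 129211616) had 28.5 to 66.9 normalized CPM in control kidneys, with a median of 53.5, and 37.7, 35.3, 41.6 and 46.2 in rilmenidine kidneys. The 4 rilmenidine values fell into the gap between the 2 lowest and the 4 highest control kidneys. Its log2 fold change was -0.25 ± 0.21 (SE; adjusted p = 0.722, edgeR). Slc20a2 (ENSMUSG00000037656; chromosome 8, 22476788 to 22569612) had 9.13 to 25.8 in control kidneys, with a median of 18.4, and 28.4, 21.7, 23.4 and 21.5 in rilmenidine kidneys. Its fitted change was the nearest of the 9 to the threshold, at 0.36 ± 0.23 (SE) on the log2 scale with an unadjusted p of 0.141 and an adjusted p of 0.613 (edgeR), and the interval holds folds of 0.913 to 1.79. No rilmenidine kidney was below 21.5 CPM, and 2 of 6 control kidneys were above it.

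Slc34a1 accounted for nearly all reads of the 4 transporter genes. Its share in control kidneys was 98.7% ± 0.361 (SD, n = 6), that in rilmenidine kidneys 98.7% ± 0.0841 (SD, n = 4), and the 10 kidneys ranged from 98.2% to 99.2%. With the counts divided by transcript length the range was 97.8% to 98.9%. The members of a pair could have shared reads only over short stretches: the longest identical run was 17 bases between Slc34a1 and Slc34a3 and 23 bases between Slc20a1 and Slc20a2, beside reads of 100 bases.

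Slc20a1 was the only one of the 10 genes whose ranges did not overlap between the kidneys with high and with low Malat1, a nuclear noncoding RNA that differed widely between libraries. Malat1 stood at 1182 to 2100 normalized CPM in control kidneys 1, 3, 4 and 5, at 398 and 284 in control kidneys 2 and 6, and at 306 to 393 in the rilmenidine kidneys. In the 4 kidneys with more than 1000 CPM of Malat1, Slc20a1 had 51.5 to 66.9 CPM, and in the other 6 it had 28.5 to 46.2. A separation of this kind between those 4 and 6 kidneys occurred in 995 of the 10055 genes tested (9.90%), and in the same direction in 508 (5.05%). The 1 among these 10 genes is thus near the share over all genes tested. With log2 Malat1 in the fit, the log2 fold change of Slc20a1 was 0.34 in place of -0.25, and that of Fgfr1 was -0.03 in place of 0.18. That of Slc34a1 was -0.21 in place of -0.04, that of Pth1r -0.21 in place of -0.05, that of Slc20a2 0.18 in place of 0.36 and that of Vdr -0.015 in place of -0.06, and all 6 were short of the threshold (adjusted p of 1.00 for each, edgeR). All kidneys above 1000 CPM of Malat1 were control kidneys, so Malat1 and group cannot be fully told apart in these fits. The part of Malat1 in these values was not tested further.

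**Figure D2:**
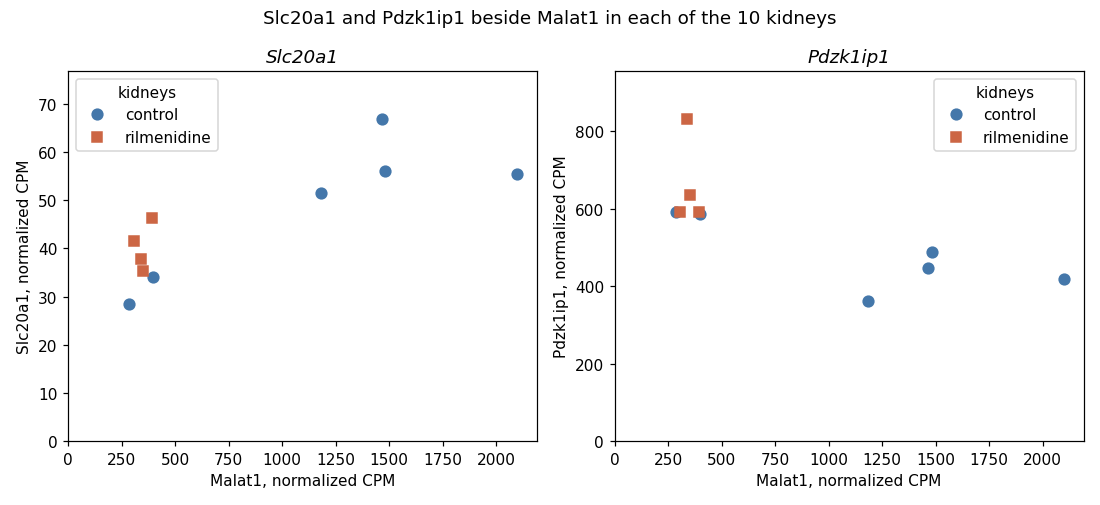
Normalized CPM of Slc20a1 (left) and of Pdzk1ip1 (right) on the vertical axes against normalized CPM of Malat1 on the horizontal axes, with 1 point for each of 6 control (circles) and 4 rilmenidine (squares) kidneys. The 4 control kidneys above 1000 CPM of Malat1 lie above all others for Slc20a1 and below all others for Pdzk1ip1, and the other 2 control kidneys lie beside the rilmenidine kidneys.

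Slc9a3r1 (ENSMUSG00000020733; chromosome 11, 115163341 to 115181181) encodes NHERF1, the scaffold that holds the Slc34a1 protein in the brush border. It showed the smallest difference of the 9 genes. Control kidneys had 112 to 165 normalized CPM with a median of 140.2, and rilmenidine kidneys had 128, 138, 148 and 135, all inside that range. The means were 138 ± 17.2 (SD, n = 6) and 137 ± 8.12 (SD, n = 4), with a log2 fold change of -0.0086 ± 0.12 (SE; adjusted p = 0.989, edgeR) and folds of 0.830 to 1.19 inside the interval.

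Pdzk1 (ENSMUSG00000038298; chromosome 3, 96829284 to 96870926) encodes another scaffold of brush-border transporters and is known as an abundant protein of the proximal tubule. Here it had 1 to 10 raw counts in control libraries and 3 to 13 in rilmenidine libraries. Its mean levels were 2.72 ± 1.98 (SD, n = 6) and 2.65 ± 1.02 (SD, n = 4) normalized CPM. In a fit without the filter its log2 fold change was 0.02 ± 0.70 (SE; adjusted p = 0.999 over 27565 genes, edgeR). All of its last 500 exonic bases also lie in exons of genes on the opposite strand, among them Gpr89, whose exons meet it tail to tail and which had 5 to 43 counts. In all, 41.7% of its exonic bases are shared with other genes. The strand setting of the counting is not given in the sources used here, and how far the overlap touches the counts of Pdzk1 was not tested.

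Kl (ENSMUSG00000058488; chromosome 5, 150952607 to 150993817) encodes klotho. It was an abundant transcript, ranked 217 of 10055 by CPM. Control kidneys ranged from 511 to 657 normalized CPM with a median of 575, and rilmenidine kidneys 1 to 4 had 477, 532, 447 and 635. Rilmenidine kidneys 1 and 3 lay below every control kidney, and kidneys 2 and 4 lay inside the control range. The means were 581 ± 65.0 (SD, n = 6) and 523 ± 82.9 (SD, n = 4), a log2 fold change of -0.15 ± 0.13 (SE; unadjusted p = 0.274, adjusted p = 0.737, edgeR). The interval reaches from a fold of 0.739 to one of 1.10. With a kidney left out the value ran from -0.26 (without rilmenidine kidney 4) to -0.084 (without rilmenidine kidney 3), with log2 library size as a covariate it was -0.28 and with a replicate block -0.065. The difference in means was smaller than the SD of either group.

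The start region of Kl, chr5:150952357-150952656 on the plus strand, is shown with the same capitals because the transporter windows above differ from it in base composition.
Kl: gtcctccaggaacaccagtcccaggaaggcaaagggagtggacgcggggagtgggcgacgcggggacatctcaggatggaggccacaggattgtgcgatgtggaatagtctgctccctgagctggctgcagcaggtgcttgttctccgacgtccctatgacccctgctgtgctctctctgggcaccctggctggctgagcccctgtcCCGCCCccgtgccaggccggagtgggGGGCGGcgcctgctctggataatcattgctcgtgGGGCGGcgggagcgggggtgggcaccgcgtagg
It held GGGCGG at -17 and 18 and, on the other strand, at -43, and 19 CpG. The GC box was in 8 of the 12 windows, those of 6 of the 8 genes, and in 35.7% of all windows. The windows of Slc34a1 and Slc34a3 did not hold it.

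Fgfr1 (ENSMUSG00000031565; chromosome 8, 25513654 to 25575718) encodes the receptor that klotho turns towards FGF23. It had 17.1 to 28.8 normalized CPM in control kidneys, with a median of 23.7, and 32.5, 23.3, 24.1 and 26.9 in rilmenidine kidneys. Rilmenidine kidney 1 was above all control kidneys and the other 3 lay inside the control range. The fitted log2 difference was 0.18 ± 0.19 (SE; adjusted p = 0.789, edgeR). The spread of Fgfr1 in control kidneys, 19.2%, was little above the 17.3% of counting error.

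Pth1r (ENSMUSG00000032492; chromosome 9, 110722085 to 110747145) encodes the receptor for parathyroid hormone. Control kidneys had 351 to 518 normalized CPM with a median of 404, and rilmenidine kidneys had 396, 319, 432 and 473. One rilmenidine kidney was the lowest of the 10, and the highest was a control kidney. The log2 fold change was -0.05 ± 0.14 (SE; adjusted p = 0.935, edgeR), with folds of 0.786 to 1.18 inside the interval.

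Vdr (ENSMUSG00000022479; chromosome 15, 97854425 to 97910630) encodes the nuclear receptor for active vitamin D. It was the most abundant of the receptors by CPM, at rank 199. Control kidneys had 524 to 774 normalized CPM with a median of 584, and rilmenidine kidneys had 574, 520, 595 and 653. Apart from control kidney 3, which set the upper end of the control range, the kidneys of the groups covered nearly the same range. The log2 fold change was -0.06 ± 0.13 (SE; adjusted p = 0.923, edgeR), with folds of 0.790 to 1.16 inside the interval.

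**Figure D3:**
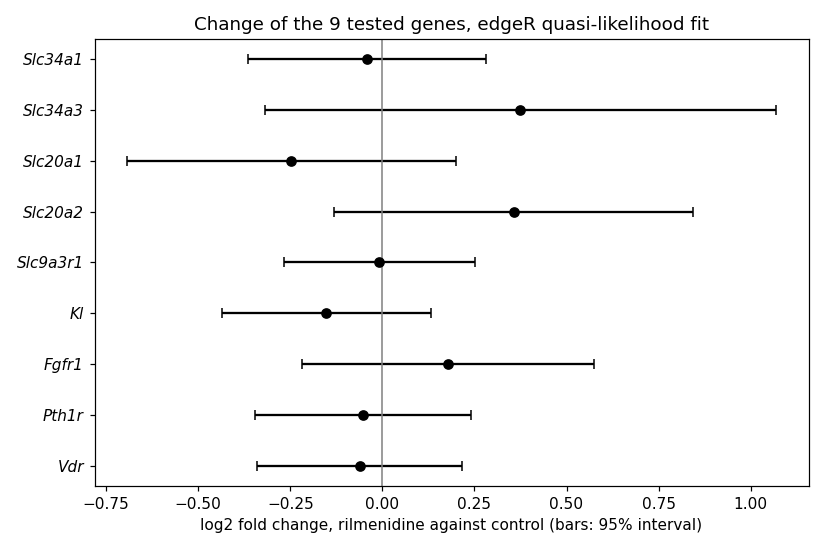
Log2 fold change of the 9 tested genes, rilmenidine against control (horizontal axis; points, edgeR estimates; bars, 95% interval). Every bar crosses 0, and the bars are widest for Slc34a3 and Slc20a2, which have the fewest counts beside Fgfr1.

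The fitted values of several of the 9 genes moved by more than 1.5 times with the setting, while none passed the threshold. In the 7 libraries above 10 CPM of receptor gene reads, the log2 fold change was 0.041 for Slc34a1, 0.79 for Slc34a3, -0.53 for Slc20a1, -0.068 for Slc9a3r1, 0.28 for Fgfr1, -0.21 for Pth1r and -0.18 for Vdr. With log2 library size as a covariate it was -0.11 for Slc34a1, 0.61 for Slc34a3, 0.038 for Slc20a1, 0.086 for Slc9a3r1, -0.25 for Pth1r and -0.11 for Vdr. With the mean of the proximal tubule markers as a covariate it was -0.11 for Slc34a1, -0.14 for Slc20a1, -0.027 for Slc9a3r1, 0.11 for Fgfr1, -0.11 for Pth1r and -0.022 for Vdr. Among the less abundant genes, leaving out a kidney moved Slc20a1 between -0.38 (without control kidney 6) and -0.13 (without control kidney 4). Fgfr1 was 0.10 without control kidney 4 and 0.079 without rilmenidine kidney 1, and Slc20a2 was 0.23 without control kidney 3.

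Per length of transcript, the mean levels over the 10 kidneys fell in a wide order. Slc34a1 stood at 1490 normalized CPM per kb, Pth1r at 179, Vdr at 137, Kl at 109, Slc9a3r1 at 71.6, Slc20a1 at 13.7, Slc20a2 at 5.78, Slc34a3 at 5.28, Fgfr1 at 4.90 and Pdzk1 at 0.993. The place of Pdzk1 rests on few counts, and its exons overlap genes on the opposite strand. That place may not reflect the level of its RNA. Neighbours in this order whose ranges overlapped were Pth1r and Vdr, Vdr and Kl, Slc20a2 and Slc34a3, and Slc34a3 and Fgfr1. Pth1r was above Vdr in 9 of 10 kidneys and Vdr above Kl in 10 of 10. Slc20a2 was above Slc34a3 in 6 and Slc34a3 above Fgfr1 in 5, so that per length these 3 genes had no order beyond their spread. A library of 3′ ends gives reads per molecule rather than per base, and without division by length Vdr stood at place 2, Kl at 3 and Pth1r at 4, while Fgfr1 moved from 9 to 7. Undivided, Slc34a3 was below both Slc20a2 and Fgfr1 in every kidney, with means of 11.5, 20.6 and 24.7 normalized CPM.

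**Figure D4:**
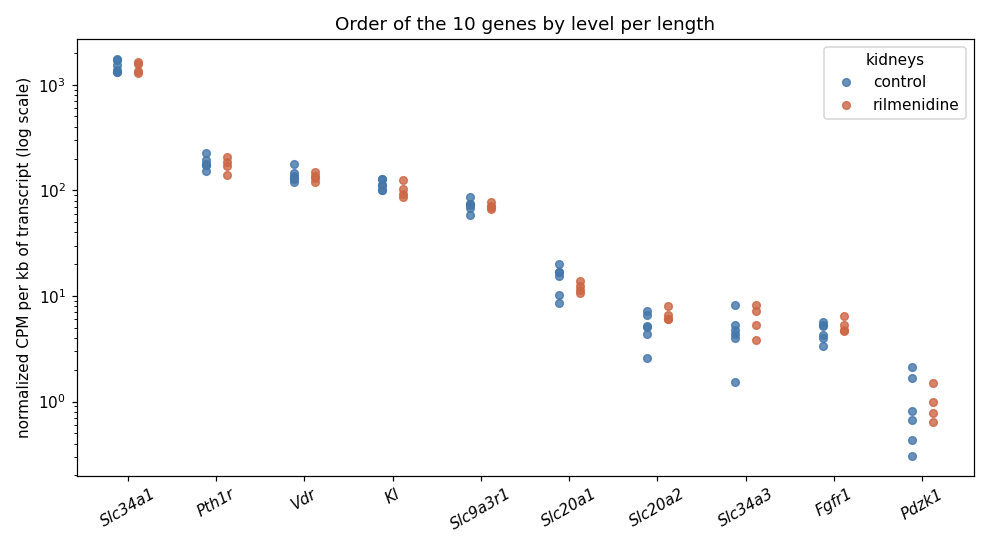
Normalized CPM per kb of transcript (log scale) of the 10 genes, ordered by their mean, with a point for each of 6 control and 4 rilmenidine kidneys. Slc34a1 lies near 1490, 4 genes lie between about 70 and 180, and Slc20a2, Slc34a3 and Fgfr1 overlap near 5.

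Among the kidneys, each of the abundant genes had close companions after the group means had been subtracted. Over 5821 genes with a mean of at least 20 CPM, Slc34a1 was most like Pdk2 (Pearson's r = 0.96, Spearman's rho = 0.98), Nfix and Prdx2 (r = 0.94 for both). Pth1r was most like Ctdsp1 (r = 0.95), Coasy and Git1 (r = 0.94 for both). Vdr was most like Mfap1a (r = 0.97), Irak1 and Mccc1 (r = 0.91 for both), and Kl was most like Mapt (r = 0.91), C130074G19Rik (r = 0.88) and G3bp2 (r = 0.85). Without the 2 kidneys farthest from the median of the anchor gene, r lay between 0.71 and 0.94 for these 12 pairs. The values describe 10 kidneys that share library depth and composition, and the pairs were picked for their r out of all genes compared.

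The other genes of these pathways were read in 4 lists of 78 listed genes, of which 58 were tested. With the filter of the study 0 of the 58 were called by edgeR (0.0% of all genes). At an unadjusted p under 0.05, 1 was higher with rilmenidine and 4 were lower, beside 4.43% higher and 6.13% lower among all genes tested.

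Of the partners of klotho and FGF23 signalling, 18 of 20 were tested, with 0 higher and 3 lower at an unadjusted p under 0.05 and a median log2 fold change of -0.07. Dusp6, a phosphatase that is induced by and restrains ERK signalling, had 54.8 to 117 normalized CPM in control kidneys with a median of 60.0, and 35.4, 57.0, 46.9 and 40.0 in rilmenidine kidneys. Of the 4 rilmenidine kidneys, 3 lay below every control kidney. The log2 fold change was -0.65 ± 0.21 (SE; adjusted p = 0.303, edgeR), and -0.44 without control kidney 5, which held the 117. Frs2, the adaptor that links FGF receptors to ERK signalling, had a log2 fold change of -0.49 ± 0.22 (SE; adjusted p = 0.442, edgeR), and Sgk1, a kinase of sodium transport that FGF23 can act through, one of -0.44 ± 0.20 (SE; adjusted p = 0.456, edgeR). Among those above 0, the kinase Mapk3 had the smallest p (0.192 unadjusted, edgeR), with a log2 fold change of 0.18. That of the receptor Fgfr4 was -0.07. Fgf23, which is made in bone, had 0 counts in all libraries.

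Of the partners of parathyroid hormone signalling and of the scaffolds, 16 of 23 were tested, with 1 higher and 0 lower at an unadjusted p under 0.05 and a median of -0.03. Pdzk1ip1, a small membrane protein that binds Pdzk1, had 361 to 591 normalized CPM in control kidneys with a median of 467, and 832, 634, 591 and 593 in rilmenidine kidneys. The lowest rilmenidine and the highest control kidney met at 591. Its log2 fold change was 0.46 ± 0.16 (SE; adjusted p = 0.316, edgeR). Like Slc20a1 it divided the kidneys by Malat1, with 361 to 488 CPM in the 4 kidneys above 1000 CPM of Malat1 and 587 to 832 in the other 6, and with log2 Malat1 in the fit its value was 0.21. Those 4 are all control kidneys, and Pdzk1ip1 was named for its p between the groups, which favours such a split. Separation in that direction occurred in 487 of the 10055 genes tested. Prkca, a kinase downstream of the receptor, had the smallest p among those below 0, with a log2 fold change of -0.33. Gnas, which couples the receptor to cyclic AMP, had 0 to 19 counts and Slc9a3, the sodium-proton exchanger that NHERF1 is named for, 0 to 1 count; both were chosen for mention after their values were seen. The annotation that the counting used is not given, so that these counts are not read as levels of the RNA.

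Of the genes of vitamin D metabolism and calcium handling, 14 of 18 were tested, with 0 higher and 1 lower and a median of -0.06. Cyp24a1, the enzyme that breaks down active vitamin D and a target of Vdr, had 33.7 to 92.1 normalized CPM in control kidneys with a median of 50.4, and 19.7, 40.2, 37.4 and 34.0 in rilmenidine kidneys. Apart from control kidney 1, every control kidney was above every rilmenidine kidney. The log2 fold change was -0.70 ± 0.24 (SE; adjusted p = 0.321, edgeR), and -0.49 without control kidney 3, which held the 92.1. When the filter was relaxed to 1 count in any library, Cyp24a1 and Dusp6 passed the threshold (adjusted p = 0.0272 and 0.0330, edgeR), as did 241 of 27565 genes (0.874%). They were the only ones of the 4 lists to pass under any of the settings tried. Cyp27b1, the enzyme that makes active vitamin D, had 0 to 18 counts and was not tested. Calb1, the calcium-binding protein of the distal tubule, had a log2 fold change of -0.29, the channel Trpv5 one of -0.11, the calcium-sensing receptor Casr one of -0.04, and the vitamin D carrier Gc one of 0.74 (unadjusted p = 0.0706), which was 0.32 without rilmenidine kidney 1, 1.19 with log2 library size as a covariate and 1.40 in the 7 libraries above 10 CPM of receptor gene reads.

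Of the other genes of phosphate transport and balance, 10 of 17 listed genes were tested, with 0 past an unadjusted p of 0.05 in either direction and a median of 0.02. The exporter Xpr1 had a log2 fold change of -0.07, the transporter Slc17a1 of the proximal tubule 0.03, the glucose-6-phosphate transporter Slc37a4 0.28 and Galnt3, which glycosylates FGF23, -0.15. Slc34a2, the intestinal relative of Slc34a1, had 1 to 9 counts and was not tested.

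**Figure D5:**
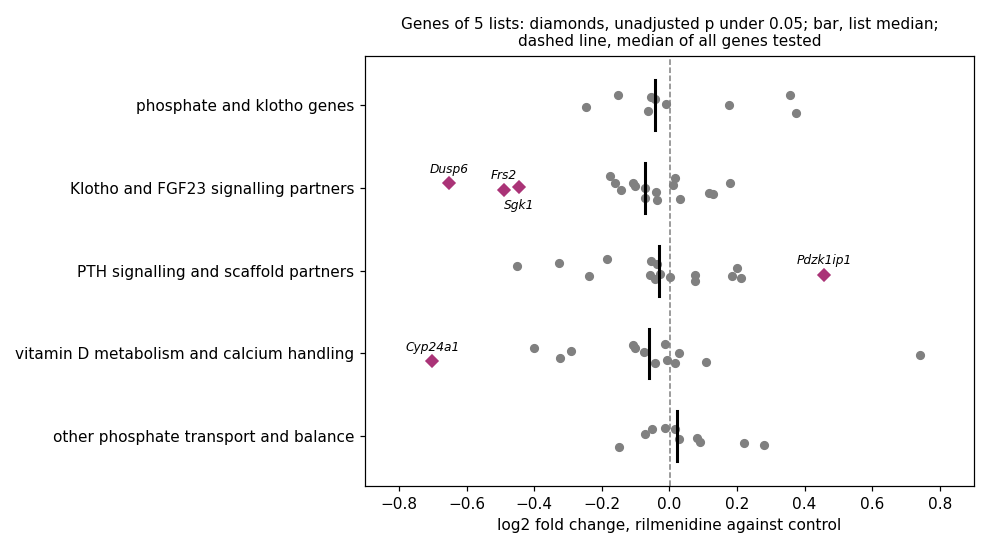
Log2 fold change, rilmenidine against control (horizontal axis), of the 9 tested genes (top row) and of the tested genes of 4 pathway lists; diamonds mark an unadjusted p under 0.05, black bars the median of a list and the dashed line the median of all genes tested. The 5 diamonds are Dusp6, Frs2, Sgk1 and Cyp24a1 below 0 and Pdzk1ip1 above 0, and none lies in the top row.

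Markers of the tubule segments were read beside these genes. Among all genes tested, 4.43% were higher and 6.13% lower at an unadjusted p under 0.05 (edgeR), and 1.67% did not overlap between the groups. Of the proximal tubule markers, 17 of 18 were tested, with 1 higher and 0 lower at an unadjusted p under 0.05 and a median log2 fold change of 0.09. Of the distal convoluted tubule markers, where klotho and the calcium genes are used, 6 of 7 were tested, with 1 higher and 3 lower and a median of -0.35. Slc12a3, the sodium-chloride cotransporter, had -0.55, the magnesium channel Trpm6 -1.01, the kinase Wnk4 -0.34 and Egf 0.42, each short of the adjusted threshold (adjusted p of 0.313, 0.296, 0.451 and 0.385, edgeR). The values of Trpm6 did not overlap, at 7.41 to 16.8 normalized CPM in control kidneys and 3.48 to 5.95 in rilmenidine kidneys. They rest on 9 to 29 reads a library in control kidneys and 6 to 18 in rilmenidine kidneys. In rilmenidine kidneys Egf had the highest level of the 7 markers, at 238 to 354 normalized CPM, beside 140 to 287 in control kidneys. It went the other way from Slc12a3, Trpm6 and Wnk4 and weighs on the sum. The levels of the 7 markers, Egf included, summed to 429 to 642 normalized CPM in control kidneys and 499 to 630 in rilmenidine kidneys. With the mean of these markers in the fit, an alternative added after seeing the data, the log2 fold change was 0.77 for Slc34a3, -0.47 for Slc20a1, 0.57 for Slc20a2, -0.11 for Slc9a3r1, 0.31 for Fgfr1, 0.10 for Slc34a1, 0.025 for Pth1r, -0.13 for Vdr and -0.12 for Kl, and it was -0.38 for Dusp6, -1.10 for Cyp24a1 and 1.19 for Gc, all short of the threshold. Of the thick ascending limb markers, 5 of 6 were tested and all 5 were above 0, with 1 higher at an unadjusted p under 0.05 (Umod, 0.61, adjusted p = 0.244, edgeR) and a median of 0.08. Of the collecting duct principal cell markers, 7 of 8 were tested, with 3 higher and 0 lower and a median of 0.16. The 3 were the water channels Aqp2 at 0.58, Aqp3 at 0.34 and Aqp4 at 2.12, with adjusted p of 0.229, 0.442 and 0.211 (edgeR). The other tested markers of this list were Fxyd4 at 0.16, Scnn1g at 0.11, Hsd11b2 at 0.06 and Scnn1b at -0.34. Aqp2 did not overlap, at 52.6 to 79.7 normalized CPM in control kidneys and 81.2 to 122 in rilmenidine kidneys. Aqp4 overlapped: it reached 27.4 in control kidneys, and rilmenidine kidney 1 lay below every control kidney. Rilmenidine kidney 2 stood at 32.0, and only kidneys 3 and 4, at 189 and 97.7, lay far above the control range. Both are libraries under 10 CPM of receptor gene reads. The difference of mean log2 CPM of Aqp4 between the groups was 1.37, beside the fitted 2.12. The summed levels of the principal cell markers were 219 to 326 and 314 to 451 normalized CPM, and those of the thick ascending limb 1634 to 2303 and 1952 to 2932. The principal cell sums include the 189 and 97.7 CPM of Aqp4 in rilmenidine kidneys 3 and 4. Umod was the largest part of the thick ascending limb sums, at 909 to 1451 in control and 1178 to 1986 in rilmenidine kidneys. The part of these markers in the values of the 10 genes was not tested further.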

How the data were processed

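RNA of 10 kidneys was sequenced from 3′-end libraries with molecular identifiers, prepared by a protocol that the labels cite. The deposited values are raw read counts by Ensembl gene, not normalized by the authors. The submitters' processing notes name bcl2fastq 1.8.4, Trimmomatic 0.32, STAR 2.5.2b, featureCounts 1.5 and the build mm10. The annotation, the strand setting and the collapsing of identifiers are not given in the sources used here, so counts of overlapping genes are uncertain and counts may exceed molecules. The supplementary methods give 8 control kidneys, and 6 were given here. Liver data were not analysed here.

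Groups follow the labels. The members and lists were chosen with earlier results of these data known. Genes that reached 6 reads in 7 or more of the 10 libraries (10055) were normalized by RLE and tested, two-sided, with the quasi-likelihood test of edgeR 4.0.16 under R 4.3.3 without covariates. The filter, RLE and edgeR follow the study's methods, which do not name which of edgeR's tests was used. P-values were adjusted by Benjamini-Hochberg over all genes. Normalized CPM are counts scaled to a common, RLE-adjusted library size. Log2 CPM for companions and marker means used a prior count of 2. Symbols and positions are from GENCODE M21 (GRCm38), which matched 42462 of 43629 identifiers, and promoter windows from RefSeq. Intervals are 95%.

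Named genes were all 10 members, in each pathway list the smallest p in each direction and every unadjusted p under 0.05, 9 genes named always, and the 3 closest companions of 4 members. The test was first run on simulated counts. Alternatives were TMM, DESeq2 1.42.0, the likelihood ratio test, other filters, covariates, a block by replicate number and each kidney left out.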

Additional observations from a re-analysis of the deposited data

Results flagged for a closer look

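Of 58 groups of kidneys examined among the named genes, 4 held a kidney far from the rest of its group by Dixon's test, which chance gives in about 1 in 20 groups. None belonged to the 10 genes. Cyp24a1 stood at 92.1 normalized CPM in control kidney 3, with the other control kidneys at 33.7 to 54.2, and the log2 fold change without that kidney was -0.49. Dusp6 stood at 117 normalized CPM in control kidney 5, with the others at 54.8 to 70.6, and the log2 fold change without it was -0.44. Trpv5 stood at 11.1 in control kidney 4, with the others at 8.68 to 9.59. Frs2 stood at 26.1 in rilmenidine kidney 2, with the others at 15.6 to 17.4, and the log2 fold change without it was -0.68.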

How the results depend on the processing

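No alternative brought any of the 10 genes past the threshold: over 197 values of the 9 tested genes the smallest adjusted p was 0.363 (edgeR), and 17 of the values had the other sign. The count of all genes called was 0 in the fit reported, 241 with at least 1 count in any sample, 44 by the likelihood ratio test, 60 by DESeq2 and 3 with a replicate block, and 0 to 37 with a kidney left out (37 when control kidney 6 was left out, 33 for control kidney 2 and 6 for rilmenidine kidney 1). The count over the pathway lists was 2 with at least 1 count in any sample and 0 otherwise. Kidneys of the same replicate number did not deviate together (r of 0.08, 0.08, -0.08 and -0.01), so that the numbers were not taken as pairs, and the replicate block called 0 of the 10 genes.

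Signs turned as follows on the log2 scale, and the cause was not tested. With log2 library size as a covariate, Slc20a1 was 0.038, Slc9a3r1 0.086, Xpr1 0.00080, Trpv5 0.0090 and Prkca 0.11. With log2 Malat1, Slc20a1 was 0.34, Fgfr1 -0.028, Fgfr4 0.079 and Xpr1 0.14. In the 7 libraries (5 control, 2 rilmenidine) above 10 CPM of receptor gene reads, Slc34a1 was 0.041, Slc17a1 -0.24 and Trpv5 0.098. With the distal convoluted tubule mean, Slc34a1 was 0.10, Pth1r 0.025, Slc17a1 -0.092, Trpv5 0.0038 and Galnt3 0.0022. With the replicate block Slc17a1 was -0.037. With a kidney left out, Slc34a1 ran from -0.10 to 0.019, Slc9a3r1 from -0.061 to 0.044, Pth1r from -0.14 to 0.046, Vdr from -0.12 to 0.018, Slc17a1 from -0.043 to 0.11, Casr from -0.20 to 0.14 and Trpv5 from -0.40 to 0.092. Slc34a3 has no value under the filter of at least 10 counts in every sample. Depth limits Slc34a3, Slc20a2, Fgfr1 and Pdzk1, whose counting error is near the spread between kidneys or makes up much of it.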
